A study of Mus musculus with 36 samples.

Results

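The 6 genes described here belong to the aldosterone response of the kidney, namely the epithelial sodium channel subunits Scnn1a, Scnn1b and Scnn1g, the mineralocorticoid receptor Nr3c2, the enzyme Hsd11b2 and the kinase Sgk1. They were chosen by name, out of 20454 genes that could be paired with a row of the read count table, and the row with the highest mean count stood for each gene. Of the 6, 5 had counts and were tested, whereas Scnn1b was listed at 0 in every library. RNA-seq was carried out on kidney tissue of 2 mouse models of autosomal dominant polycystic kidney disease on a C57BL/6 background, with 3 knockout (KO) and 3 wild-type (WT) libraries at each of 3 ages, postnatal day 1 (P1), P3 and P7. There were 12 groups and 36 libraries. The KO mice were Pkd1 f/f:HoxB7-Cre or Pkd2 f/f:HoxB7-Cre, in which the HoxB7-Cre transgene removes the floxed part of the gene in the collecting duct. The WT mice were littermates of genotype Pkd1 f/f or Pkd2 f/f, so that KO and WT shared the floxed alleles and differed by the transgene. Because RNA came from the kidney and not from sorted collecting duct cells, fewer cells of a type and less RNA per cell cannot be told apart in any value below.

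In the principal cells of the collecting duct and connecting tubule, aldosterone binds the mineralocorticoid receptor, which then acts in the nucleus on genes for sodium transport. Glucocorticoids bind the same receptor, and the Hsd11b2 enzyme inactivates them in these cells. The receptor induces Sgk1, a kinase that inhibits the ubiquitin ligase Nedd4-2 (Nedd4l) and so keeps the sodium channel at the apical membrane, and it also induces Scnn1a. The channel (ENaC) is built of the alpha, beta and gamma subunits encoded by Scnn1a, Scnn1b and Scnn1g, and sodium that enters through it leaves the cell through the Na,K-ATPase.

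A sequence near Sgk1 that matches the inverted repeat of the steroid receptor half-site is shown first, as a description of its letters. Promoter windows of RefSeq (GRCm38.p6, the assembly of mm10), from 250 bases before to 50 bases after a start site, were found for 4 of the 6 genes, and 6 of the 9 windows belonged to Sgk1. The inverted repeat of the receptor half-site, AGAACA and TGTTCT with any 3 bases between them, which reads the same on both strands, was present in 1 window of Sgk1, at chr10:21993701-21993715, 189 bases before the start site of that window. It lies 965 bases before the start of the Sgk1 transcript whose counts are given here, NM_011361. The region chr10:21993641-21993775, plus strand, is printed with the arms of the repeat in capitals.
Sgk1 element: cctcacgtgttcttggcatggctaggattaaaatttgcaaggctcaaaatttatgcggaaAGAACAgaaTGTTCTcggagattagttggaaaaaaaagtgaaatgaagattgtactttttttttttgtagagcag
The whole pattern was found in 3 of 32851 windows (0.00913%), and a single half-site, AGAACA or TGTTCT, in 19.0%. No match was found in the windows of Scnn1b, Scnn1g and Nr3c2, which says only that these letters are not in those windows. A match is a description of the sequence, and binding was not measured.

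Library totals ran from 7179152 to 15850818 counts with a median of 13143336, and the 3 Pkd1 WT libraries at P1 held the fewest. Levels are given in CPM, the counts of a transcript scaled to a common library total, after TMM scaling, a factor for library composition, over the 36 libraries. The Pkd1 transcript gave no check of the KO labels, with 261 CPM in Pkd1 KO and 243 CPM in WT kidneys at P7 (means, n = 3 each), and the Pkd2 transcript had 265 CPM in Pkd2 KO and 325 CPM in WT kidneys at P7 (a log2 difference of -0.29 with adjusted p = 0.0122, edgeR's quasi-likelihood test). Both rows count the entire transcript, also outside the floxed exons. Collecting duct markers were present, although the principal cell genes Avpr2 (listed at 0), Aqp4 and Elf5 had too few counts to be tested. The distal tubule transporter Slc12a3 was listed at 0 in all libraries and Umod had at most 1 count, so that a listing at 0 in this table is no measure of absence.

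Libraries stood apart in 2 ways that touch the results. Genes of the adrenal cortex, the gland that makes aldosterone and lies on the kidney, had high counts in Pkd1 KO P7 replicate 1, Pkd2 KO P7 replicate 3 and Pkd2 WT P3 replicate 2. Cyp21a1, a steroid hydroxylase, had 7666, 5876 and 28854 counts in them, against 0 to 138 in the other 33 libraries. Cyp11b2, the aldosterone synthase, had 2191, 1103 and 969 counts against at most 15. The summed level of all 6 adrenal genes was 1390 to 5080 CPM in these 3 libraries and 8.21 to 37.7 CPM in the others. Each call of a member at P7 is therefore given with and without these libraries.

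**Figure D1:**
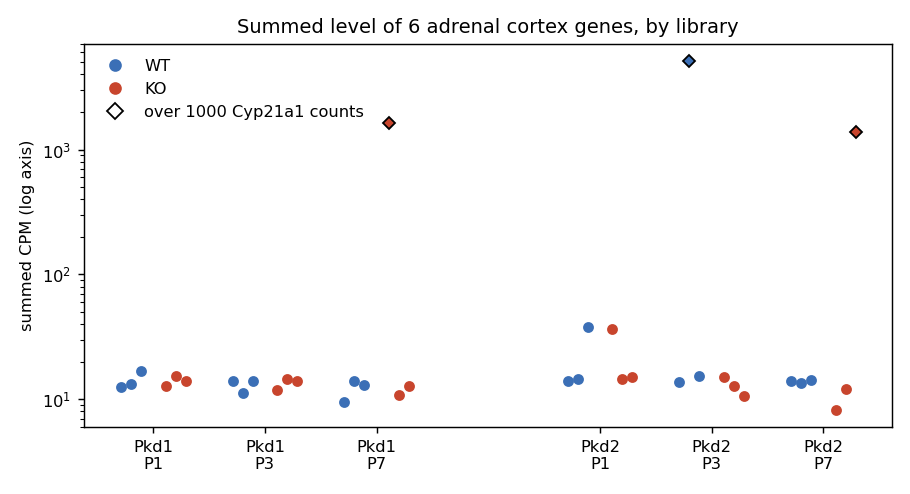
Summed CPM (log axis) of 6 adrenal cortex genes in each library, by model and postnatal day, with WT in blue, KO in red and diamonds for libraries with over 1000 Cyp21a1 counts. The 3 diamonds lie at 1390 CPM or above, and the other 33 libraries at 37.7 CPM or below.

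Y-linked transcripts had 3926 to 5041 counts in 18 libraries and at most 5 in the other 18. In the Pkd1 model at P7 they were present in 3 of 3 KO and 0 of 3 WT kidneys, so that KO and the sex of the mice cannot be told apart there. For Pkd2 at P7 they were present in 3 of 3 KO and 2 of 3 WT kidneys. In KO kidneys of both models they were present in 0 of 3 at P1 and 3 of 3 at P7. Age and sex therefore cannot be told apart in any comparison of KO kidneys between these ages. Over all 36 libraries with a term for each group, 0 of the 5 tested members differed with Y-linked counts (lowest adjusted p = 0.999 in edgeR's test), while 7 of 13014 transcripts (0.0538%) did, 4 of them Y-linked. This test rests on the groups in which Y-linked counts varied, namely Pkd1 WT P1, Pkd2 WT P1, Pkd2 WT P3 and Pkd2 WT P7. No KO group and no Pkd1 group at P7 is among them, so it cannot show whether sex touches the members there. The estimate for Sgk1 was the lowest, at -0.58 on the log2 scale (unadjusted p = 0.0443), and those of the other 4 members lay between 0.06 and 0.18.

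At P7, Scnn1a was higher and Nr3c2 was lower in the KO kidneys of both models. Scnn1a rose 1.37-fold in the Pkd1 and 1.99-fold in the Pkd2 model, and Nr3c2 fell to 0.188 and 0.667 of its WT level. Scnn1g fell in the Pkd1 model, to 0.726 of WT, and Hsd11b2 fell in the Pkd2 model, to 0.738 of WT. Thus in each model 3 of the 5 tested members, 1 of them higher and 2 lower, had an adjusted p under 0.05 (edgeR, quasi-likelihood). Of all transcripts tested, 1721 of 12527 (13.7%) passed in the Pkd1 and 1753 of 12633 (13.9%) in the Pkd2 model. The median log2 fold change of the members was -0.73 and -0.44, beside -0.01 and 0.00 over all transcripts.

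**Figure D2:**
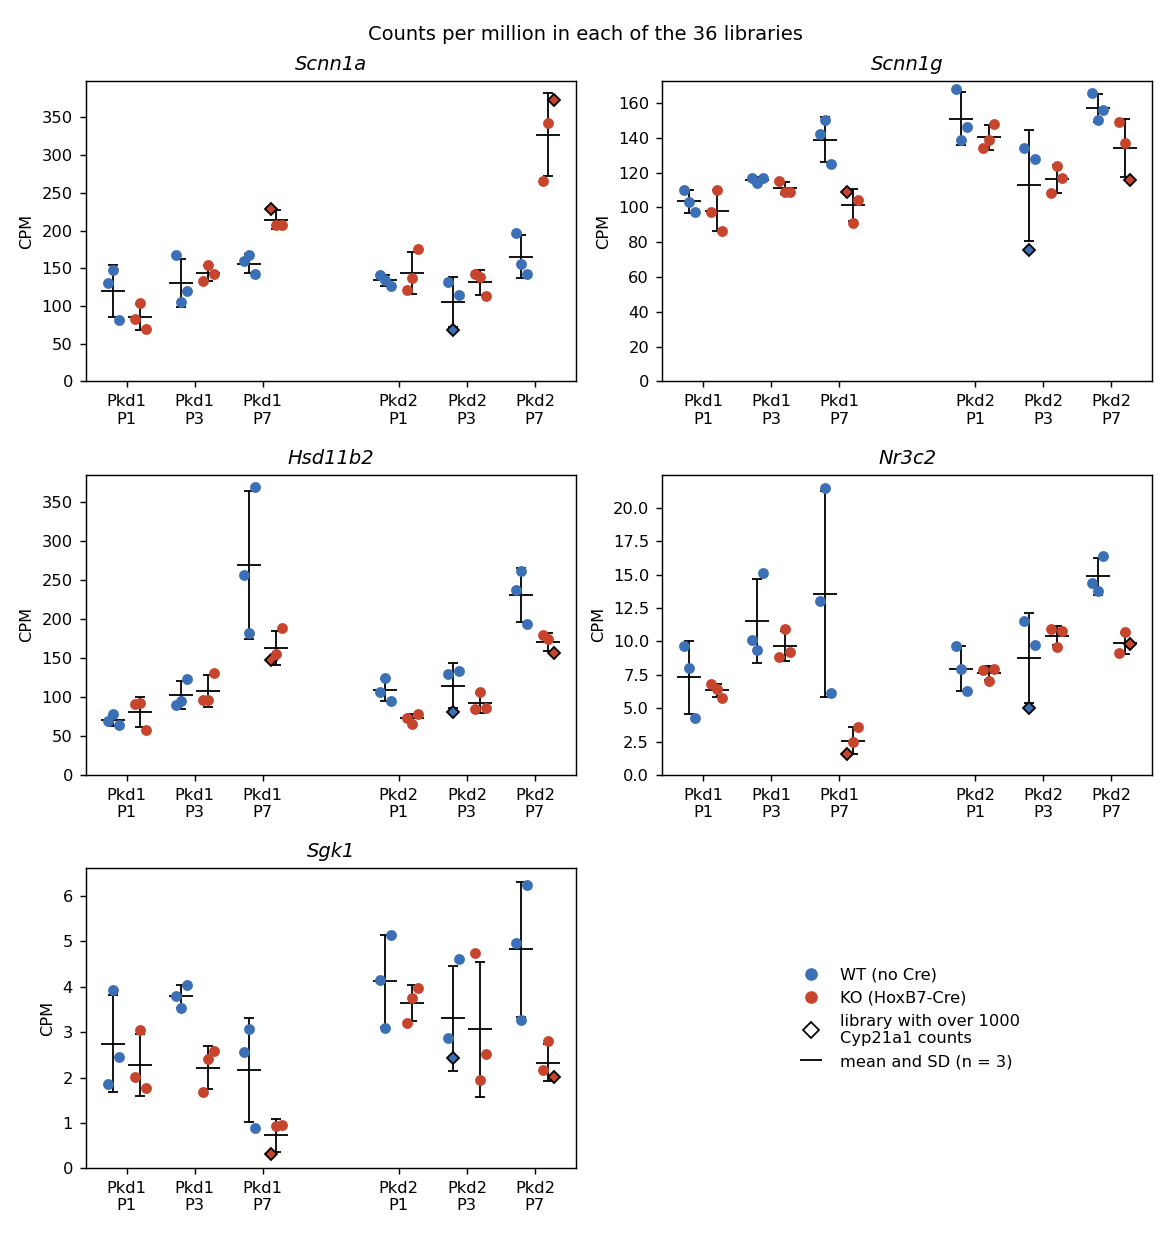
CPM of the 5 tested members in each of the 36 libraries, by model and postnatal day, with WT in blue, KO in red, diamonds for libraries with over 1000 Cyp21a1 counts, and bars for the mean and SD of 3 libraries. At P7 all KO libraries lie above all WT libraries of the same model for Scnn1a and below them for Nr3c2.

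Nr3c2 encodes the mineralocorticoid receptor (NM_001083906, gene at chr8:76898083-77245012 of mm10, as all gene coordinates here). At P7 in the Pkd1 model it had 13, 21.5 and 6.16 CPM in WT and 1.58, 2.5 and 3.58 CPM in KO kidneys. The highest KO library was below the lowest WT library, although the WT values were widely spread. The log2 fold change was -2.41 (SE 0.49, adjusted p = 0.0211 in edgeR's test), and the counts behind the KO values were 20, 32 and 49. In the Pkd2 model at P7 it had 14.4, 13.8 and 16.4 CPM in WT and 9.14, 10.7 and 9.79 CPM in KO kidneys. These groups did not overlap either, and the WT spread was small (14.8 ± 1.36 CPM, SD, n = 3). Here the log2 fold change was -0.58 (SE 0.13, adjusted p = 0.0269 in edgeR's test).

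Both calls for Nr3c2 depended on the libraries used. Without the libraries with adrenal counts, a choice made after the data were seen, the log2 fold changes were -2.15 (adjusted p = 0.0650 in edgeR's test) and -0.57 (adjusted p = 0.0801). Leaving out any 1 of the 6 libraries kept the call in 3 of 6 cases in the Pkd1 and 0 of 6 in the Pkd2 model, with log2 fold changes from -2.76 to -1.91 and from -0.64 to -0.52. The KO effect was 1.81 lower on the log2 scale in the Pkd1 than in the Pkd2 model (SE 0.53), which did not pass edgeR's interaction test (adjusted p = 0.158) but passed in DESeq2 (adjusted p = 0.0298). In edgeR's test 0 of 12343 transcripts passed for this difference (0.0%), while 2130 had an unadjusted p under 0.05, and DESeq2 called 406.

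At P1 and P3, 0 of the 5 tested members passed between KO and WT in either model in edgeR's test, and the share of all transcripts that passed was 0.0% in 3 of these comparisons and 0.00798% (1 of 12527) in the Pkd1 model at P3. At an unadjusted p under 0.05 there were 161 and 1767 transcripts in the Pkd1 and 708 and 563 in the Pkd2 model, and DESeq2 called 2 and 248, and 33 and 38, in the same order. For Nr3c2 the groups overlapped at both ages. Its means ran from 6.33 to 7.96 CPM in the 4 groups at P1 and from 8.73 to 11.5 CPM at P3. Between P1 and P7 it rose 1.86-fold in Pkd2 WT kidneys (log2 change 0.90, SE 0.23, adjusted p = 0.00807 in edgeR's test). In Pkd1 WT kidneys the change was also 1.86-fold but did not pass (SE 0.38, adjusted p = 0.0961). In Pkd1 KO kidneys Nr3c2 fell from P1 to P7, from 6.33 ± 0.503 to 2.55 ± 1.00 CPM (SD, n = 3 each, log2 change -1.30, adjusted p = 0.0186 in edgeR's test). These kidneys had Y-linked counts at P7 and not at P1, so that age and sex cannot be told apart in this fall.

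Hsd11b2 encodes the dehydrogenase that inactivates glucocorticoids in aldosterone target cells (NM_008289, chr8:105518746-105523988). In WT kidneys it was the member with the largest rise after birth, which passed in both models. It had 69.6, 77.8 and 63.8 CPM at P1 and 256, 182 and 370 CPM at P7 in Pkd1 WT kidneys, with no overlap. This was a 3.82-fold rise (log2 change 1.93, SE 0.23, adjusted p = 2.88e-05 in edgeR's test). In WT kidneys of the other model it rose 2.13-fold, from 109 ± 14.3 to 231 ± 34.8 CPM (SD, n = 3 each, adjusted p = 0.0002 in edgeR's test). Of the 5 tested members, 2 rose from P1 to P7 in WT kidneys of each model, namely Scnn1g and Hsd11b2 in the Pkd1 and Hsd11b2 and Nr3c2 in the Pkd2 model. Of all transcripts 12.6% and 13.1% rose, and 25.8% and 26.7% passed in either direction.

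KO kidneys had less Hsd11b2 than WT at P7. The Pkd2 WT values were 238, 262 and 194 CPM and the KO values 179, 175 and 157 CPM, without overlap. The log2 fold change was -0.44 (SE 0.11, adjusted p = 0.0405 in edgeR's test), and without the library with adrenal counts it was -0.38 (adjusted p = 0.138). The call was kept in 1 of 6 cases when 1 library was left out. Pkd1 KO kidneys had 147, 155 and 188 CPM, and these overlapped with the WT values at the lowest WT library. The difference of -0.73 did not pass there (SE 0.23, adjusted p = 0.0707 in edgeR's test), whereas it passed in DESeq2 (adjusted p = 0.0145). KO kidneys also gained Hsd11b2 between P1 and P7, 2.03-fold in the Pkd1 model (adjusted p = 0.00228 in edgeR's test) and 2.35-fold in the Pkd2 model (adjusted p = 8.21e-05). In both models the KO kidneys had Y-linked counts at P7 and not at P1, so that age and sex cannot be told apart in these gains. Neither change of the KO effect from P1 to P7 passed for Hsd11b2 (log2 -0.91, adjusted p = 0.0829, and 0.14, adjusted p = 0.814, in edgeR's interaction test).

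An early difference of Hsd11b2 was measured in the Pkd2 model at P1. The WT values were 107, 124 and 95.4 CPM and the KO values 73.7, 66.0 and 77.9 CPM, with no overlap. The log2 fold change of -0.58 (SE 0.10) had an adjusted p = 0.476 in edgeR (0.000443 before adjustment), where 0 of 12633 transcripts (0.0%) passed and 708 had an unadjusted p under 0.05. DESeq2 called 33 transcripts in that comparison, Hsd11b2 among them (adjusted p = 0.00197).

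Sgk1, the kinase induced by the receptor, had few counts (NM_011361, gene at chr10:21882184-21999903). The highest of its 6 rows had 4 to 77 counts per library, and the other 5 rows had 1 to 150 counts each when the 36 libraries were summed. Reads that fit several of its transcripts may have been left out, so that the level of the gene as a whole is uncertain. At P7 in the Pkd2 model it had 4.96, 3.26 and 6.24 CPM in WT and 2.17, 2.80 and 2.02 CPM in KO kidneys, without overlap. The log2 fold change of -1.04 (SE 0.30) did not pass edgeR's test (adjusted p = 0.0533) and passed in DESeq2 (adjusted p = 0.0304). In the Pkd1 model at P7 the WT values were 2.57, 3.06 and 0.879 CPM and the KO values 0.316, 0.937 and 0.949 CPM, which overlapped. Here the log2 fold change was -1.56 (SE 0.61, adjusted p = 0.114 in edgeR's test). In the Pkd1 KO kidneys, the level at P7 was lower than at P1 (0.734 ± 0.362 against 2.28 ± 0.681 CPM, SD, n = 3 each, adjusted p = 0.0131 in edgeR's test), and without the library with adrenal counts the call was lost, as was that for the fall of Nr3c2 from P1 to P7. Y-linked counts were present in 0 of 3 of these kidneys at P1 and 3 of 3 at P7, so that age and sex cannot be told apart in the fall of Sgk1. With Y-linked counts as a covariate, the log2 fold change of Sgk1 in the Pkd1 model at P7 was -0.70 (SE 0.79). That fit cannot separate sex from genotype.

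Scnn1a encodes the alpha subunit of the channel (NM_011324, chr6:125314271-125344943). In the Pkd2 model at P7 it had 197, 156 and 143 CPM in WT and 266, 343 and 373 CPM in KO kidneys. All KO libraries were above all WT libraries, and the highest KO value came from the library with adrenal counts. KO exceeded WT by 0.99 on the log2 scale (SE 0.15, adjusted p = 0.00627 in edgeR's test). It was 0.90 without that library (adjusted p = 0.0250), and the call was kept when any 1 of the 6 libraries was left out and in 11 of 11 other settings, but at 1.99-fold it did not reach a 2-fold minimum. Without Pkd2 WT P7 replicate 3, so that every library held Y-linked counts, it was 0.89 (adjusted p = 0.00566 in edgeR's test).

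In the Pkd1 model at P7, Scnn1a had 160, 167 and 142 CPM in WT and 229, 208 and 207 CPM in KO kidneys, again without overlap. KO exceeded WT by 0.45 on the log2 scale (SE 0.11, adjusted p = 0.0334 in edgeR's test). It was 0.42 without the library with adrenal counts (adjusted p = 0.103), and the call was kept in 2 of 6 cases when 1 library was left out. The difference in effect between the models was -0.52 (Pkd1 minus Pkd2, SE 0.19) and did not pass edgeR's interaction test (adjusted p = 0.214). The fit with Y-linked counts as a covariate used all 18 libraries of the Pkd1 model, in which they differed within the WT P1 group alone, so that KO and the covariate were nearly inseparable at P7 by design. The SE of Scnn1a was 0.33 there against 0.11 in the fit of the 6 libraries at P7 without the covariate, so that these fits also differ in their libraries. With all 18 libraries and no covariate the call of Scnn1a was lost as well. In the fit with the covariate, Scnn1a had a log2 difference of 0.93 (adjusted p = 0.240 in edgeR's test) in the Pkd1 model at P7. That of Nr3c2 was -2.22 (adjusted p = 0.228). With the covariate, 0 of the 5 tested members and 6 of 12527 transcripts passed, which says nothing about whether the differences follow sex or genotype.

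In the Pkd1 model the KO effect on Scnn1a differed between P1 and P7, a result that depended on the libraries used. At P1 the Pkd1 KO kidneys had 82.8, 104 and 69.0 CPM and the WT kidneys 131, 148 and 81.7 CPM, which overlapped (log2 fold change -0.51, SE 0.23, adjusted p = 1.0 in edgeR's test). KO was lower in 3 of 3 same-numbered pairs, which correlated in this comparison, and with a replicate block the log2 fold change was -0.49 (SE 0.08, adjusted p = 0.107 in edgeR's test). From P1 to P7 the difference of KO from WT moved up by 0.96 on the log2 scale (SE 0.28), which passed edgeR's interaction test (adjusted p = 0.0432). In that interaction 2 of the 5 tested members passed, Scnn1a and Nr3c2 (log2 -2.20, SE 0.56, adjusted p = 0.0265), beside 971 of 12527 transcripts (7.75%). Without the library with adrenal counts neither passed edgeR's test, at 0.92 (adjusted p = 0.0757) and -1.94 (adjusted p = 0.0604). Leaving out 1 library kept the call of Scnn1a in 6 of 18 cases and that of Nr3c2 in 11 of 18. Y-linked counts were present in 0 of 3 Pkd1 KO kidneys at P1 and 3 of 3 at P7, and in 2 of 3 and 0 of 3 WT kidneys. The change of the KO effect therefore cannot be told apart from sex. In the Pkd2 model 0 of the 5 tested members and 164 of 12633 transcripts (1.30%) passed, and the change for Scnn1a was 0.88 (SE 0.29, adjusted p = 0.151 in edgeR's test). Within KO kidneys, where 39.7% of all transcripts passed between P1 and P7 in the Pkd1 and 22.9% in the Pkd2 model, Scnn1a rose from P1 to P7 2.53-fold in the Pkd1 and 2.27-fold in the Pkd2 model (adjusted p = 0.000107 and 0.000735 in edgeR's test). In the Pkd2 model too, Y-linked counts were present in 0 of 3 KO kidneys at P1 and 3 of 3 at P7. Age and sex therefore cannot be told apart in either rise. Within WT kidneys the step from P1 to P7 was 1.30-fold and 1.23-fold and did not pass (adjusted p = 0.167 and 0.297 in edgeR's test).

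**Figure D3:**
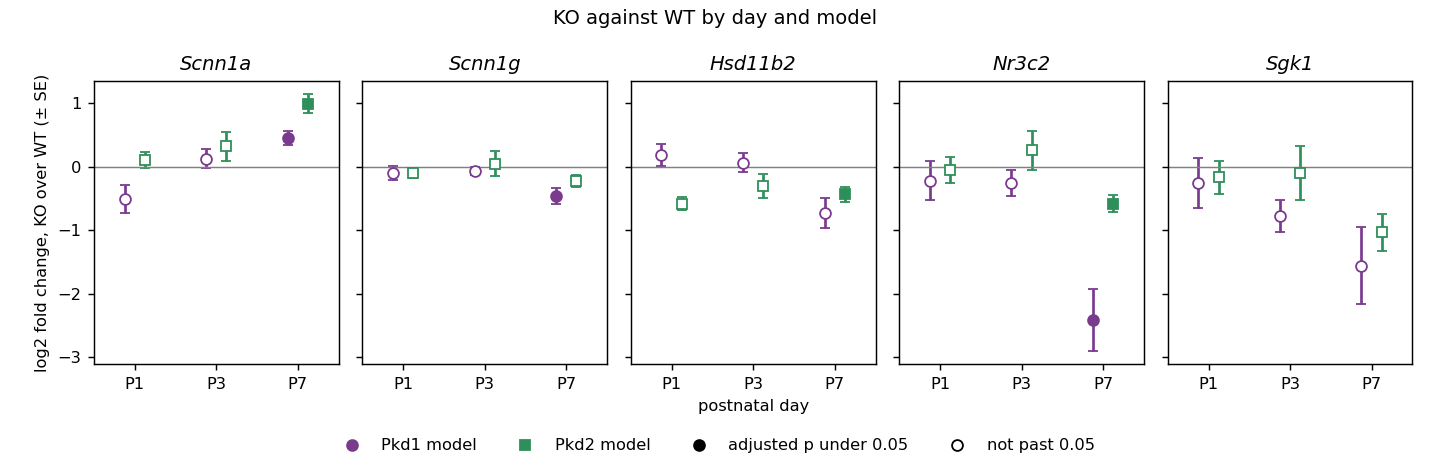
Log2 fold change of KO over WT with its SE for the 5 tested members at P1, P3 and P7, with circles for the Pkd1 and squares for the Pkd2 model, filled where the adjusted p in edgeR's test was under 0.05. The 6 filled symbols all lie at P7, above 0 for Scnn1a and below 0 for Scnn1g, Hsd11b2 and Nr3c2.

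Scnn1g encodes the gamma subunit (NM_011326, chr7:121734420-121768482) and was the member that varied least, from 75.8 to 168 CPM over the 36 libraries. At P7 in the Pkd1 model it had 142, 150 and 125 CPM in WT and 109, 91.0 and 104 CPM in KO kidneys, without overlap. The log2 fold change was -0.46 (SE 0.12, adjusted p = 0.0400 in edgeR's test), -0.51 without the library with adrenal counts (adjusted p = 0.0796), and the call was kept in 1 of 6 cases when 1 library was left out. In the Pkd2 model the WT values were 166, 150 and 156 CPM and the KO values 149, 137 and 116 CPM. These did not overlap, yet the difference of -0.23 did not pass (SE 0.09, adjusted p = 0.142 in edgeR's test). The lowest of all 36 values, 75.8 CPM, came from Pkd2 WT P3 replicate 2, the library with the most adrenal counts, which also held the lowest Scnn1a value.

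Scnn1b, which encodes the beta subunit, lies on the same chromosome as Scnn1g with 96555 bases between them (chr7:121865038-121918728). It has 2 rows in the table, NM_001272023 and NM_011325, which were both listed at 0 in all 36 libraries. The counting used default options, under which a read that fits more than 1 feature is left out. Of the genes with 2 or more rows, 22.4% were at 0 in all libraries, against 15.3% of those with 1 row, and whether shared reads account for the Scnn1b rows was not tested. Its level is unknown and no comparison was made.

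The ratio of alpha to gamma was higher in the KO kidneys of both models at P7. Per kilobase of transcript, Scnn1a and Scnn1g had similar counts in WT kidneys at P7, with ratios of 0.963, 0.955 and 0.970 in the Pkd1 and 1.01, 0.890 and 0.779 in the Pkd2 model. In KO kidneys the ratios were 1.79, 1.96 and 1.71, and 1.53, 2.14 and 2.76. All 6 KO ratios were above all 6 WT ratios. The ratio was 2.1-fold higher in KO than in WT kidneys, which is a log2 difference of 1.07 averaged over the models (two-sided exact permutation test within each model, p = 0.005, the smallest that 400 arrangements allow). Within 1 model the smallest p is 0.1, and it was reached in each. In the Pkd1 model Y-linked counts were present in 3 of 3 KO and 0 of 3 WT kidneys, so that KO and sex cannot be told apart there. In the Pkd2 model they were present in 3 of 3 KO and 2 of 3 WT kidneys. The test over both models includes the Pkd1 libraries and shares their limit. Without the libraries with adrenal counts the difference was 0.98 (exact permutation p = 0.01, the smallest possible with 100 arrangements). At P1 and P3 the group means of the ratio lay between 0.739 and 1.11. The ratios with Scnn1b could not be formed.

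**Figure D4:**
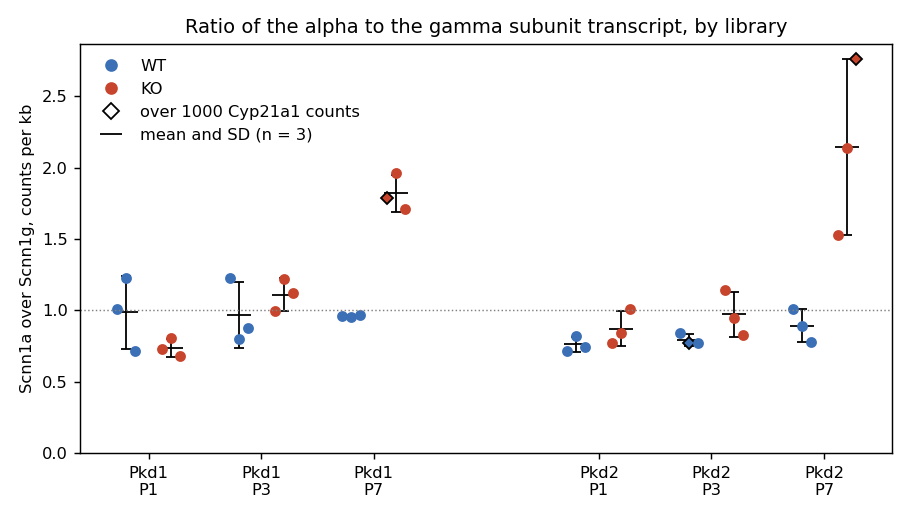
Ratio of Scnn1a to Scnn1g counts per kilobase in each library, by model and postnatal day, with WT in blue, KO in red, diamonds for libraries with over 1000 Cyp21a1 counts, and bars for the mean and SD of 3 libraries. The KO libraries at P7 lie between 1.53 and 2.76, above the WT libraries at P7, which lie between 0.779 and 1.01.

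When the P7 libraries of both models were fitted together, a comparison added after the data were seen, all 5 tested members passed, 1 higher and 4 lower. The log2 fold changes were 0.72 for Scnn1a, -0.35 for Scnn1g, -0.58 for Hsd11b2, -1.50 for Nr3c2 and -1.30 for Sgk1, with adjusted p values from 0.000286 to 0.0120 in edgeR's test. In that fit 4082 of 12343 transcripts passed (33.1%), 16.5% higher and 16.6% lower. Without the libraries with adrenal counts 3 of the 5 passed, and the adjusted p values of Hsd11b2 and Sgk1 were 0.0572 and 0.0553. Their log2 fold changes were then -0.52 and -1.08. With Y-linked counts as a covariate 0 of the 5 and 939 of 12343 transcripts passed. The log2 fold changes were 0.52 for Scnn1a, -0.36 for Scnn1g, -0.83 for Hsd11b2, -1.35 for Nr3c2 and -0.89 for Sgk1. Y-linked counts varied within the Pkd2 WT group alone, through its replicate 3. These estimates therefore rest on that library and cannot separate sex from genotype.

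The members differed in their level per kilobase. Over all libraries the median was 58.3 CPM per kilobase for Hsd11b2, 40.4 for Scnn1a, 39.2 for Scnn1g, 1.64 for Nr3c2 and 1.15 for Sgk1. The Sgk1 value is that of its highest row. Reads that fit several Sgk1 transcripts may have been left out, so that its place in this order is uncertain. Across the 12 groups, Scnn1a was highest in Pkd2 KO P7 kidneys (327 ± 55.0 CPM) followed by Pkd1 KO P7 kidneys (215 ± 12.2 CPM, SD, n = 3 each), and both steps down to the next group were without overlap of libraries. The 9 other steps between neighbours in its order overlapped. Hsd11b2 was highest in Pkd1 WT P7 and next in Pkd2 WT P7 kidneys, and 9 of its 11 steps overlapped. For Nr3c2 the last step, down to Pkd1 KO P7 kidneys, was the 1 of 11 without overlap. All 11 steps overlapped for Scnn1g and for Sgk1.

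The transcripts most like each member over the 36 libraries, by Pearson's r of log2 CPM among 13014 transcripts, are given as a description, since libraries of one group share age and genotype. They were F2rl1 (0.88), Thbs1 (0.87) and Lrrk1 (0.86) for Scnn1a, and Gca (0.83), Atp1b1 (0.82) and Cds1 (0.82) for Scnn1g. For Hsd11b2 they were Prdx5 (0.93), Pipox (0.92) and Ccs (0.92), for Nr3c2 Narf (0.94), Znfx1 (0.93) and Ston1 (0.92), and for Sgk1 Pcdhga10 (0.85), Vgll4 (0.83) and Msmp (0.83). Pcdhga10 belongs to a gene cluster with shared exons, and its counts are uncertain. Between members, r was 0.71 for Nr3c2 and Sgk1, 0.56 for Scnn1g and Nr3c2, 0.54 for Scnn1a and Hsd11b2, 0.46 for Scnn1g and Sgk1, 0.44 for Scnn1g and Hsd11b2 and 0.41 for Scnn1a and Scnn1g. It was 0.19 for Hsd11b2 and Nr3c2, 0.05 for Scnn1a and Nr3c2, -0.19 for Scnn1a and Sgk1 and -0.20 for Hsd11b2 and Sgk1.

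The other genes of the pathway were read from lists by role. On the receptor side, 7 of 8 genes were tested at P7, and 2 rose in the Pkd1 and 3 rose and 1 fell in the Pkd2 model. Higher calls made up 6.20% and 7.82% of all transcripts in the 2 models, and lower calls 7.54% and 6.06%. Fkbp5, a chaperone partner of steroid receptors which glucocorticoids induce, rose from 47.1 to 72.8 CPM in the Pkd1 and from 45.8 to 76.0 CPM in the Pkd2 model (log2 0.62 and 0.73, adjusted p = 0.0343 and 0.0114). Ptges3, the Hsp90 co-chaperone p23, rose by 0.59 and 0.30 on the log2 scale (adjusted p = 0.0186 and 0.0151). Nr3c1, the glucocorticoid receptor, fell in the Pkd2 model, from 162 to 118 CPM (log2 -0.45, adjusted p = 0.00315), and had 160 and 113 CPM in Pkd1 WT and KO kidneys (adjusted p = 0.0519 in edgeR's test). The glucocorticoid-activating enzyme Hsd11b1 had at most 4 counts. Hsp90aa1, an Hsp90 chaperone and the last of the 3 genes that rose in the Pkd2 model, changed by 0.32 (adjusted p = 0.0139) and was named after its values were seen. In the Pkd1 model its difference of 0.30 did not pass (adjusted p = 0.098 in edgeR's test). The median of this list was 0.30 and 0.12.

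Among the kinases and ubiquitin control of ENaC, 8 of 12 genes were tested, and 1 rose in each model. Ywhae, a 14-3-3 protein that binds phosphorylated Nedd4-2, rose in the Pkd1 model (log2 0.41, adjusted p = 0.0376 in edgeR's test), and Cnksr3, a scaffold of the channel's regulatory complex, rose in the Pkd2 model (log2 0.38, adjusted p = 0.0341). In edgeR's interaction test between the models at P7, 0 of the 8 tested genes of this list and 0 of 12343 transcripts passed. Among the channel-activating proteases and their inhibitors, 7 of 8 genes were tested and 1 fell in each model. This was Prss8, prostasin, a protease that activates ENaC, which went from 250 to 169 CPM in the Pkd1 and from 258 to 188 CPM in the Pkd2 model (log2 -0.58 and -0.45, adjusted p = 0.0224 and 0.00736 in edgeR's test). Of the 3 genes of the epigenetic control of Scnn1a, Dot1l and Mllt3 were tested and 0 passed. At an unadjusted p under 0.05 both had passed in the Pkd1 and neither in the Pkd2 model (log2 -0.40 and -0.97 in Pkd1). Of all transcripts, 4209 of 12527 in the Pkd1 and 3741 of 12633 in the Pkd2 model passed at that level.

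Of the 10 genes listed here that aldosterone or corticosteroids induce, 7 were tested in the Pkd1 model, with 1 higher and 2 lower, and 8 in the Pkd2 model, with 2 higher and 1 lower. Lcn2, lipocalin 2, a secreted protein known as a marker of tubular injury, rose most, from 9.79 to 118 CPM in the Pkd1 and from 23.6 to 160 CPM in the Pkd2 model (log2 3.57 and 2.78, adjusted p = 0.00747 and 0.00627 in edgeR's test). Edn1, which encodes endothelin 1, rose in the Pkd2 model (log2 1.02, adjusted p = 0.0376). Klf9, a transcription factor, fell in the Pkd1 model (log2 -1.06, adjusted p = 0.0398). Neither passed in the other model (log2 0.57 for Edn1 and -0.26 for Klf9, adjusted p = 0.222 and 0.0818 in edgeR's test). The list median was 0.05 and 0.14.

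Atp1b1, the beta subunit of the Na,K-ATPase, stands in this list and among the transport partners. It went from 2520 to 1720 CPM in the Pkd1 and from 2730 to 1890 CPM in the Pkd2 model (log2 -0.56 and -0.52, adjusted p = 0.0496 and 0.00837 in edgeR's test). Of the 14 transport partners listed here, 8 were tested in the Pkd1 model, with 0 higher and 3 lower, and 7 in the Pkd2 model, with 1 higher and 4 lower. Fxyd2, the gamma subunit of the Na,K-ATPase, fell in both (log2 -1.43 and -0.62, adjusted p = 0.0262 and 0.0264). Wnk4, a kinase that controls sodium chloride transport, fell in the Pkd2 model (log2 -0.70, adjusted p = 0.00295 in edgeR's test). Its difference of -0.61 in the Pkd1 model did not pass (adjusted p = 0.0596). Kcnj1, the potassium channel ROMK, fell in the Pkd2 model, from 3.19 to 1.25 CPM (log2 -1.34, adjusted p = 0.0438 in edgeR's test). In the Pkd1 model it had 1.61 CPM in WT and 0.152 CPM in KO kidneys (log2 -3.34, adjusted p = 0.0527). Kcnj10, another potassium channel, fell in the Pkd1 model (log2 -0.85, adjusted p = 0.0325). Its difference of -0.43 in the Pkd2 model did not pass (adjusted p = 0.0579 in edgeR's test). In edgeR's interaction test between the models at P7, 0 of the 7 tested transport partners passed. Stk39, the kinase SPAK, named after its values were seen, rose in the Pkd2 model (log2 0.34, adjusted p = 0.0284 in edgeR's test). In the Pkd1 model its difference of 0.22 did not pass (adjusted p = 0.405). The medians were -0.73 and -0.52.

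**Figure D5:**
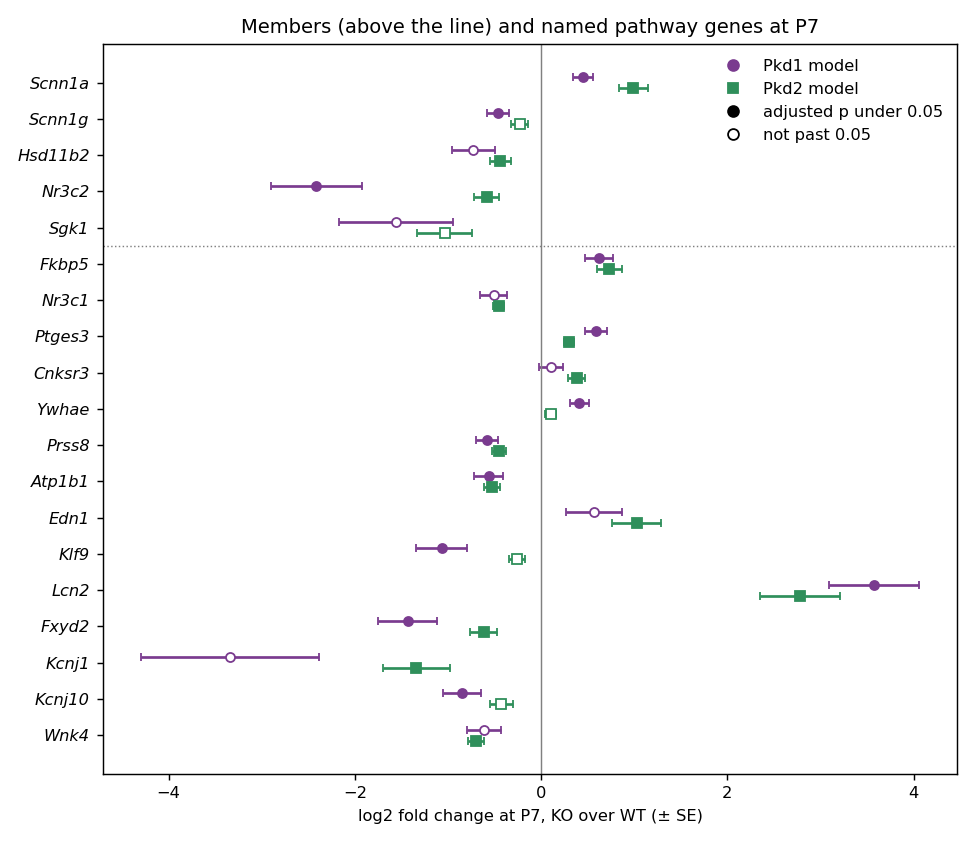
Log2 fold change of KO over WT at P7 with its SE for the 5 tested members, above the dotted line, and for the named pathway genes, with circles for the Pkd1 and squares for the Pkd2 model, filled where the adjusted p in edgeR's test was under 0.05. Lcn2 lies farthest to the right at 3.57 and 2.78, and the Na,K-ATPase genes Atp1b1 and Fxyd2 lie below 0 in both models.

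Without the libraries with adrenal counts, 1 of the 9 pathway genes called and named in the Pkd1 model still passed, Lcn2, and 8 of 11 in the Pkd2 model. The log2 fold changes of genes that lost the call in the Pkd1 model stayed close, for example 0.58 for Ptges3, 0.41 for Ywhae, -0.57 for Prss8, -1.42 for Fxyd2 and -1.04 for Klf9, while that of Fkbp5 was 0.48. With Y-linked counts as a covariate 0 of 9 and 9 of 11 passed. None of these genes changed sign in either setting. The number of calls over all transcripts without the adrenal libraries was 473 in the Pkd1 and 820 in the Pkd2 model, from 5 libraries instead of 6.

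Markers of several cell types differed between KO and WT at P7. Of all transcripts, 6.20% and 7.82% were called higher in the Pkd1 and Pkd2 models, and 7.54% and 6.06% lower. Of the principal cell genes, the water channel Aqp2 went from 396 to 82.0 CPM in the Pkd1 and from 448 to 85.6 CPM in the Pkd2 model (log2 -2.28 and -2.38, adjusted p = 0.0357 and 0.0151 in edgeR's test). Aqp3 fell by 1.19 and 0.86 on the log2 scale, and Gata3, a transcription factor of this lineage, rose in the Pkd1 model (log2 0.66, adjusted p = 0.0477). The summed level of the 6 principal cell genes was 515 to 850 CPM in WT and 256 to 403 CPM in KO kidneys of the Pkd1 model, and 500 to 1040 and 243 to 356 CPM in the Pkd2 model. All 6 intercalated cell genes and all 5 proximal tubule genes fell in both models, with medians of -1.20 and -0.87 for the former and -1.18 and -0.64 for the latter. Of the 8 genes of collecting duct epithelium, 5 were called higher in the Pkd1 and 3 in the Pkd2 model. In both, 0 were called lower, although 2 of the 8 had a negative log2 fold change in the Pkd2 model. The 8 genes summed to 1660 to 1930 CPM in WT and 2860 to 3710 CPM in KO kidneys of the Pkd1 model, and to 1740 to 2560 and 2810 to 3140 CPM in the Pkd2 model. Hoxb7, a gene of this list, went from 83.8 to 120 CPM in the Pkd1 and from 91.0 to 88.2 CPM in the Pkd2 model. Krt18, a keratin, rose by 1.94 and 1.16 on the log2 scale. The 5 genes of the distal convoluted and connecting tubule, of which Slc12a3 and Slc8a1 were at 0 and 0 of 3 tested passed, summed to 294 to 382 CPM in WT and 82.6 to 259 CPM in KO kidneys of the Pkd1 model, and to 303 to 464 and 190 to 289 CPM in the Pkd2 model. Stromal and myofibroblast genes summed to 2770 to 3560 and 4820 to 6070 CPM in the Pkd1, and to 2010 to 2520 and 5140 to 5790 CPM in the Pkd2 model. Of these, Pdgfrb was at 0, and of the 2 tested 1 rose in the Pkd1 and 2 in the Pkd2 model. Podocyte genes summed to 1300 to 1820 and 872 to 1250 CPM, and to 1650 to 2000 and 1060 to 1580 CPM, in the same order. Of the 3 tested, 1 fell in the Pkd1 and 0 in the Pkd2 model. Endothelial genes, with Pecam1 at 0, summed to 368 to 472 and 273 to 369 CPM, and to 445 to 468 and 336 to 395 CPM. Of the 2 tested, 0 fell in the Pkd1 and 1 in the Pkd2 model. The part of cell composition in the members' values was not tested.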

How the data were processed

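RNA-seq of kidneys from 3 KO and 3 WT mice per model and time point was analysed. Reads were aligned by the authors to mm10 in TopHat2 2.1.0, and HTSeq at its default settings counted them on RefSeq transcripts. CASAVA 1.8.2 is also named in the submitters' processing notes. The deposited table holds raw counts of reads per transcript, with 29996 rows and no normalization. Whether the counting used strand matched to the kit is not given in the sources used here, so that antisense or overlapping transcripts are uncertain.

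Rows were paired with symbols through RefSeq GRCm38.p6 (28974 rows), and 28877 had a length and GC content. A transcript entered the tests of a model if 3 or more of its 18 libraries had a count of 10 or above. Tests were made with edgeR 4.0.16 (quasi-likelihood test, TMM factors over the 18 libraries, Benjamini-Hochberg adjustment at 0.05), for KO against WT from the 6 libraries of a time point and for changes with age from all 18. Levels in CPM are scaled over 36 libraries, and log2 CPM for the likeness used a prior count of 2. Other software was R 4.3.3, DESeq2 1.42.0, Python 3.11.15, matplotlib 3.10.9 and pandas 2.3.3. The alternatives were DESeq2, RLE factors, no filter, a filter of 10 counts in every library, a replicate block, summed rows of a gene, a GC and length correction (loess span 0.5), all 18 libraries, Y-linked counts as a covariate, a 2-fold minimum, and leaving out each library. TMM factors of the fitted libraries, the fit without libraries with over 1000 Cyp21a1 counts, KO at P7 against P1 and the fit over both models were added after the data were seen.

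The members and lists were chosen with earlier results of these data known. Besides the members, the text names pathway genes called at P7 in both models or among the 2 largest changes of the called genes of a list in either model, and for each member the 3 transcripts of other genes with the highest r. A gene of 2 of the pathway lists is not reported here and was left out of their counts. The marker genes come from fixed lists, and those named from them were chosen after their values were seen.

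Replicate numbers come from the labels. Correlations of same-numbered KO and WT libraries were all over 0.1 in the Pkd1 model at P1 (0.313, 0.186 and 0.485), where the numbers were taken to pair the samples, and not in the other 5 comparisons. On simulated counts of the Pkd1 comparison at P7 (12527 transcripts), 52% of 2-fold and 81% of 4-fold changes were recovered with 6 false calls. The chi-square per transcript between replicates was 5.15 to 64.0 over 36 pairs, so the spread between libraries exceeds counting error. The labels number the samples of a group and do not say whether they come from separate litters, so the p-values measure the spread between these samples. No column of per-sample values was left unused.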

Additional observations from a re-analysis of the deposited data

Results flagged for a closer look

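In the Pkd1 model the KO effect differed between P7 and P1 for 2 of the 5 tested members in edgeR's interaction test, Scnn1a and Nr3c2. For Scnn1a the effect was 0.96 higher at P7 on the log2 scale (adjusted p = 0.0432), and for Nr3c2 it was 2.20 lower, a change of -2.20 (adjusted p = 0.0265). Without the libraries with adrenal counts the values were 0.92 (adjusted p = 0.0757) and -1.94 (adjusted p = 0.0604). With Y-linked counts as a covariate neither passed, and the changes were 1.74 (SE 0.51) and -1.87 (SE 1.22). The 3 Pkd1 KO kidneys had Y-linked counts at P7 and none did at P1, while of the WT kidneys 2 of 3 had them at P1 and 0 of 3 at P7, so that sex and age cannot be told apart within these groups.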

How the results depend on the processing

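At P7 the direction of all 5 tested members was kept in every setting run in both models, and Scnn1a in the Pkd2 model kept its call in all of them but the 2-fold minimum. With a replicate block, 0 of 3 members called in the Pkd1 model at P7 passed (Nr3c2 adjusted p = 0.0503, 712 against 1721 transcripts called) and Nr3c2 was lost in the Pkd2 model (adjusted p = 0.0524). The block gave 5 against 0 calls over all transcripts in the Pkd1 model at P1, with no member among them. There the numbers were taken to pair the samples from their correlations, which the labels do not state. Elsewhere at most 1 of 3 pairs correlated over 0.1 and at most 1 of 3 libraries correlated best with its own number, so there the numbers were not taken to pair the libraries. DESeq2 called 2763 and 2254 transcripts at P7, and 1 member for the difference between models, 1 for the change from P1 to P7 in Pkd2 and 1 in Pkd2 at P1, where edgeR called 0.
With Y-linked counts as a covariate the members called were 0 for both models, 0 for Pkd1 at P7 (6 transcripts called), 0 for its change from P1 to P7, and 1 each for P7 against P1 in Pkd1 WT and KO kidneys. The changes of Sgk1 in Pkd1 and Hsd11b2 in Pkd2 turned to 0.093 and -0.063 there. Without the libraries with adrenal counts they were 3 for both models, 0 for Pkd1 and 1 for Pkd2 at P7, 0 for the change in Pkd1 and 2 for P7 against P1 in Pkd1 KO kidneys. In the same setting Scnn1g from P1 to P7 in Pkd2 KO turned to 0.023, and Scnn1g and Nr3c2 in Pkd2 at P3 to -0.153 and -0.007. With all 18 libraries 1 member passed in Pkd2 at P7, and with a 2-fold minimum 1 of the 6 calls over the KO and WT comparisons, that of Nr3c2 in Pkd1. The GC and length correction turned Hsd11b2 in Pkd1 at P3 to -0.062. The log2 difference of the subunit ratio was 0.916 in Pkd1 and 1.228 in Pkd2 alone. The cause of these changes was not tested. Where libraries were left out, the fits also held fewer of them.
With 1 library left out, the members called ranged from 0 to 4 for Pkd1 at P7, where leaving out WT replicate 1, KO replicate 1 or KO replicate 2 gave 0 and KO replicate 3 gave 1. They ranged from 1 to 2 for Pkd2 at P7, 0 to 1 for the difference between models, 0 to 3 and 0 to 1 for the change in Pkd1 and Pkd2, and 2 to 4 for P7 against P1 in Pkd1 KO. Signs that turned belonged to results with no call. The ranges were -0.489 to 0.036 for Hsd11b2 between models, -0.642 to 0.06 for Sgk1 in Pkd1 WT and -0.022 to 0.14 and -0.15 to 0.023 for Scnn1g in Pkd1 and Pkd2 KO from P1 to P7. In Pkd1 they were -0.493 to 0.05 for Nr3c2 and -0.525 to 0.065 for Sgk1 at P1, and -0.001 to 0.339 for Scnn1a and -0.103 to 0.211 for Hsd11b2 at P3. In Pkd2 they were -0.056 to 0.217 for Scnn1a, -0.197 to 0.111 for Nr3c2 and -0.344 to 0.021 for Sgk1 at P1, and -0.166 to 0.192 for Scnn1g, -0.02 to 0.508 for Nr3c2 and -0.566 to 0.202 for Sgk1 at P3. The fewest counts stood behind Sgk1 and Nr3c2, with 4 to 13 and 20 to 49 in the Pkd1 KO libraries at P7, and the part of depth in their values was not tested.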
